A study of Mus musculus with 30 samples.

Results

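Livers of 10 mice that received sulindac on a choline-deficient high-fat diet (CD-HFD) were compared with livers of 5 mice that received vehicle on the same diet and did not develop hepatocellular carcinoma (HCC). The 15 arrays were chosen by their labels alone, out of 30 in the series. CD-HFD induces steatohepatitis and HCC in mice, and sulindac is a non-steroidal anti-inflammatory drug that inhibits cyclooxygenases. RNA came from fresh-frozen liver outside tumours, with 1 array per mouse. The vehicle mice without HCC were also labelled as free of fibrosis, and sulindac was given as prophylaxis. Beside them the series holds 4 vehicle mice with HCC and fibrosis on CD-HFD, 6 mice given aspirin with clopidogrel on CD-HFD, and 5 healthy mice on chow. Neither the labels nor the design text states dose, strain, sex, age or time of collection. Mice are called by their labels, where Sulin stands for sulindac, Veh_low for vehicle without HCC, Veh_high for vehicle with HCC, AspClo for the aspirin and clopidogrel arm and Hlth for healthy, before the animal number.

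Several of the largest differences were in genes of the circadian clock. In liver, the transcription factors ARNTL and CLOCK bind E-box sequences and activate the period and cryptochrome genes, whose proteins feed back to inhibit them. A second loop runs through REV-ERB repressors, such as the product of Nr1d2, which silence Arntl and Nfil3 through ROR elements. The output factor DBP and its opponent NFIL3 act on D-box sequences. Dbp is itself driven through E-boxes and peaks while Arntl is low. Through these loops the time of day sets much of the liver's lipid, glycogen and bile acid metabolism.

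Values of the 5 vehicle mice without HCC are given below in the order Veh_low_1810, Veh_low_1825, Veh_low_2091, Veh_low_794 and Veh_low_1819. Some mice stood apart from their group. Veh_low_794 and Veh_low_1819 lay nearer the mean of the healthy mice (root mean square log2 distances over the brighter genes of 0.320 and 0.317) than that of the other mice of their own group (0.354 and 0.362). Cyp2b9, which encodes a cytochrome P450, had log2 intensities of 4.14 and 4.69 in them and of at least 9.78 in the other vehicle mice without HCC. Lcn2, which encodes the acute phase protein lipocalin 2, had 4.47 and 5.70 in them and at least 9.26 in the others. The mean over male-biased liver genes was 11.32 and 11.22 in these mice and between 9.40 and 9.86 in the other 3. Veh_low_1810 lay nearer the vehicle mice with HCC (0.291 against 0.337), as did Sulin_15, alone among sulindac mice (0.300 against 0.313). The healthy mice Hlth_1798 and Hlth_1807 also lay nearest the vehicle mice with HCC (0.426 and 0.447, against 0.549 and 0.526). Groups follow the labels throughout, and an exchange of labels was not tested. Pairwise correlations between the 15 arrays lay between 0.984 and 0.996. Hepatocyte markers overlapped between the groups, with a mean of 12.16 to 12.28 in vehicle and 12.13 to 12.27 in sulindac mice.

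Of 17097 genes, 168 passed the test (0.983%), with 76 higher (0.445%) and 92 lower (0.538%) under sulindac. The test was limma's moderated test on log2 intensity, with Benjamini-Hochberg adjustment over all genes and an adjusted p under 0.05. Changes are differences of mean log2 intensity, sulindac minus vehicle without HCC, and each adjusted p is from this fit unless another is named. The size of a called change was 0.51 in the median and ran from 0.14 to 3.99. A change of at least 1 was called in 9 higher and 12 lower genes, so falls and rises of that size were of like number. Values of the 10 and 5 mice did not overlap for 79 of the called genes, against 173 of all genes (1.01%). Each array centred on its own median gave 185 genes, of which 61 were higher, 33.0% against 45.2% in the fit above. Without Veh_low_794 and Veh_low_1819 there were 159 genes, of which 72 were among the 168. The count fell to 63 without Veh_low_2091 and to 93 without Veh_low_1825.

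**Figure D1:**
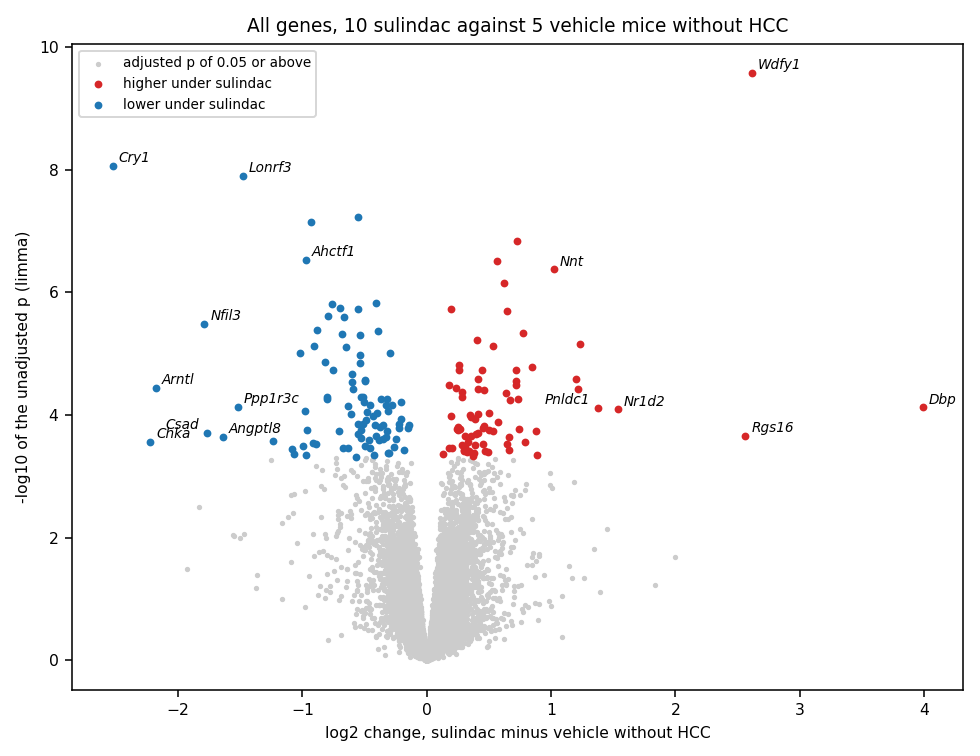
Each point is 1 of 17097 genes, with its log2 change (sulindac minus vehicle without HCC) on the x axis and -log10 of the unadjusted limma p on the y axis. The 76 genes in red were higher and the 92 in blue lower at an adjusted p under 0.05, with Wdfy1, Cry1 and Lonrf3 at the top and Dbp farthest to the right.

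Cry1, which encodes a cryptochrome that represses ARNTL and CLOCK, had the largest fall. Its log2 intensity was 8.50, 8.69, 8.99, 7.82 and 7.12 in the vehicle mice in order. In sulindac mice it ran from 4.94 to 6.90 with a median of 5.56. The groups did not overlap, and Veh_low_1819 was the vehicle mouse nearest to them. The change was -2.53 (SE 0.31, n = 10 and 5, adjusted p = 7.15e-05), a 5.76-fold lower level. It was -3.03 without Veh_low_794 and Veh_low_1819 (adjusted p = 2.31e-05).

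Promoters of 4 genes that fell are printed, chosen from the named called genes because they hold a clock motif. Each is the 250 bases before the gene's start in RefSeq (GRCm38.p6), on the gene's strand, with the motif in capitals. The E-box CACGTG reads the same on both strands and ends 55 bases before the start in Cry1 (chr10:85185055-85185304, minus strand), 40 in Lonrf3 (chrX:36328159-36328408, plus strand) and 99 in Ppp1r3c (chr19:36736605-36736854, minus strand). Nfil3 (chr13:52981040-52981289, minus strand) holds the ROR element TAGGTCA, read on the opposite strand, 12 to 6 bases before the start.
Cry1: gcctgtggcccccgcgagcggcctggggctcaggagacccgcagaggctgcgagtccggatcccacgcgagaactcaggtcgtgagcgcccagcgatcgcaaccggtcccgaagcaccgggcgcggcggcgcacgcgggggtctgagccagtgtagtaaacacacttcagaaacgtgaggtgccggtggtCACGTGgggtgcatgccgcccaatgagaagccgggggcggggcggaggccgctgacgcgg
Lonrf3: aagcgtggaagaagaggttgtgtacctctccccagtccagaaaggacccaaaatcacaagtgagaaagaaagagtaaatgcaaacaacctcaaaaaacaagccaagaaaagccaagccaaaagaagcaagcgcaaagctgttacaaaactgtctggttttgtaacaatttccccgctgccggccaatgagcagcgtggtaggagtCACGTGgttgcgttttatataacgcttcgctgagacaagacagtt
Ppp1r3c: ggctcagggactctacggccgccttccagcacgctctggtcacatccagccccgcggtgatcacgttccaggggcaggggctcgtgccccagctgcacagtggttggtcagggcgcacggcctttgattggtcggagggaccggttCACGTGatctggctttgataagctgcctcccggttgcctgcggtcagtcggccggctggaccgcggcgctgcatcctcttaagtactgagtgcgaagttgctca
Nfil3: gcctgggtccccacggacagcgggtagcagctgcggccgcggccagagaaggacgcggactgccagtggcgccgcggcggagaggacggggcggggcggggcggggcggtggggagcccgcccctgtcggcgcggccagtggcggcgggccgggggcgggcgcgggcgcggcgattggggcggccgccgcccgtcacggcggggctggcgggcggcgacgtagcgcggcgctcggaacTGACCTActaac

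The RefSeq table gave a promoter for 74 of the 92 lower and 59 of the 76 higher genes. CACGTG was in 9 of the 74 lower (12.2%) and 6 of the 59 higher genes (10.2%), beside 6.02% of all 32851 promoters and 8.75% of the 13605 measured genes with a promoter. A gene was counted where any of its promoters holds the motif. TAGGTCA, on either strand, was in 4 lower genes (5.41%) and 1 higher gene (1.69%). It was in 2.23% of all promoters and 2.25% of the measured genes with a promoter. The D-box TTANGTAA, which does not overlap the others, was in 1 lower gene (1.35%) and no higher gene. It was in 2.06% of all promoters and 1.85% of the measured genes with a promoter. Single genes were looked up only among the 15 largest rises and 15 largest falls, as selected below. Of the others there, Dusp1 and Nceh1 hold the E-box and Slc45a3 the ROR element and the D-box. Arntl, Dbp, Nr1d2 and Rgs16 hold none of these letters in this window. A match describes the letters and no more.

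Arntl, which encodes the activator of the clock, was 6.90, 7.22, 6.90, 7.58 and 7.16 in the vehicle mice in order. In sulindac mice it ran from 4.43 to 7.17, with a median of 4.75. Sulin_15, at 7.17, lay among the vehicle mice, and the other 9 sulindac mice were at 5.21 or lower. The change was -2.18 (SE 0.44, adjusted p = 0.0121). It was -2.42 without Sulin_15 (adjusted p = 0.00148), and the call was lost without Veh_low_794 and Veh_low_1819 together (-2.03, adjusted p = 0.0719).

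Nfil3, which encodes the repressor that opposes DBP, was 8.04, 8.11, 8.35, 9.03 and 8.53 in the vehicle mice in order and 6.03 to 7.46 (median 6.58) under sulindac. The groups did not overlap, and the highest sulindac mouse was again Sulin_15. Its change was -1.79 (SE 0.31, adjusted p = 0.00294). Clock, the partner of Arntl, changed by -0.73 (adjusted p = 0.0558), and Npas2, a paralogue of Clock, by -0.92 (adjusted p = 0.197), neither past the threshold. Both were chosen after their values were seen. All 5 measured genes of a list whose liver RNA peaks around the phase of Arntl were thus lower and 3 passed. Their median change was -1.787, beside 0.003 for all genes. A fit of the 15 arrays alone also called Clock (adjusted p = 0.0132) and Npas2 (adjusted p = 0.0247), so that all 5 were called. Without Veh_low_794 and Veh_low_1819, 2 of the 5 were called and the median was -1.542.

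Dbp showed the largest rise. It was 5.00, 5.20, 4.90, 4.40 and 4.88 in the vehicle mice in order, near the lower end of the array's range. Under sulindac it ran from 5.29 to 10.20 with a median of 9.33. Sulin_15, the lowest, was just above the highest vehicle mouse, and the other 9 were at 7.76 or higher. The change of 3.99 (SE 0.86, adjusted p = 0.0174) has a wide 95% interval of 2.23 to 5.75. Its call was lost without Veh_low_2091 (adjusted p = 0.0629) or Veh_low_794, and without Veh_low_794 and Veh_low_1819 together (3.83, adjusted p = 0.0856).

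Nr1d2, which encodes REV-ERB beta, was 8.77, 8.41, 7.93, 9.15 and 9.64 in the vehicle mice in order and 9.54 to 10.69 (median 10.39) under sulindac. Veh_low_1819 and Sulin_15 overlapped. The change was 1.54 (SE 0.33, adjusted p = 0.0183), lost without Veh_low_2091 (adjusted p = 0.0932) or Veh_low_1825. Per3, a period gene, was 1.45 higher but did not pass (adjusted p = 0.182), and Per1 differed by -0.033 (adjusted p = 0.98); both were chosen after their values were seen. Of 11 measured genes of the list that peaks with Dbp and the period genes, 9 were higher and 2 passed, with a median change of 0.354. Without Veh_low_794 and Veh_low_1819, 5 of the 11 were higher, with a median of -0.009.

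Rgs16, which encodes a regulator of G protein signalling with a daily rhythm in liver, spread widely among vehicle mice. It was 8.83, 7.81, 7.30, 5.21 and 4.63 in the vehicle mice in order, lowest in the pair that lay near the healthy mice. Under sulindac it was 7.25 to 10.18 (median 9.64). The change was 2.56 (SE 0.60, adjusted p = 0.0306). Without that pair it was 1.34 (adjusted p = 0.389), and the call was also lost without Veh_low_2091, Veh_low_794 or Veh_low_1819 or Sulin_20, Sulin_23, Sulin_17 or Sulin_26 alone (adjusted p up to 0.126).

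Outside these groups, the clock genes divided the vehicle mice with HCC. Dbp was 10.00 in Veh_high_1831 and 10.20 in Veh_high_2088, within the range of sulindac mice, and 4.60 in Veh_high_798 and 4.37 in Veh_high_1770. Arntl was 4.31 and 4.43 in the first pair and 6.82 and 6.98 in the second. Cry1 was 6.76, 6.35, 5.51 and 5.55 in Veh_high_798, Veh_high_1770, Veh_high_1831 and Veh_high_2088, below every vehicle mouse without HCC. Healthy mice had Dbp between 4.63 and 6.19. The labels do not state the time of collection, and its part in these values was not tested.

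**Figure D2:**
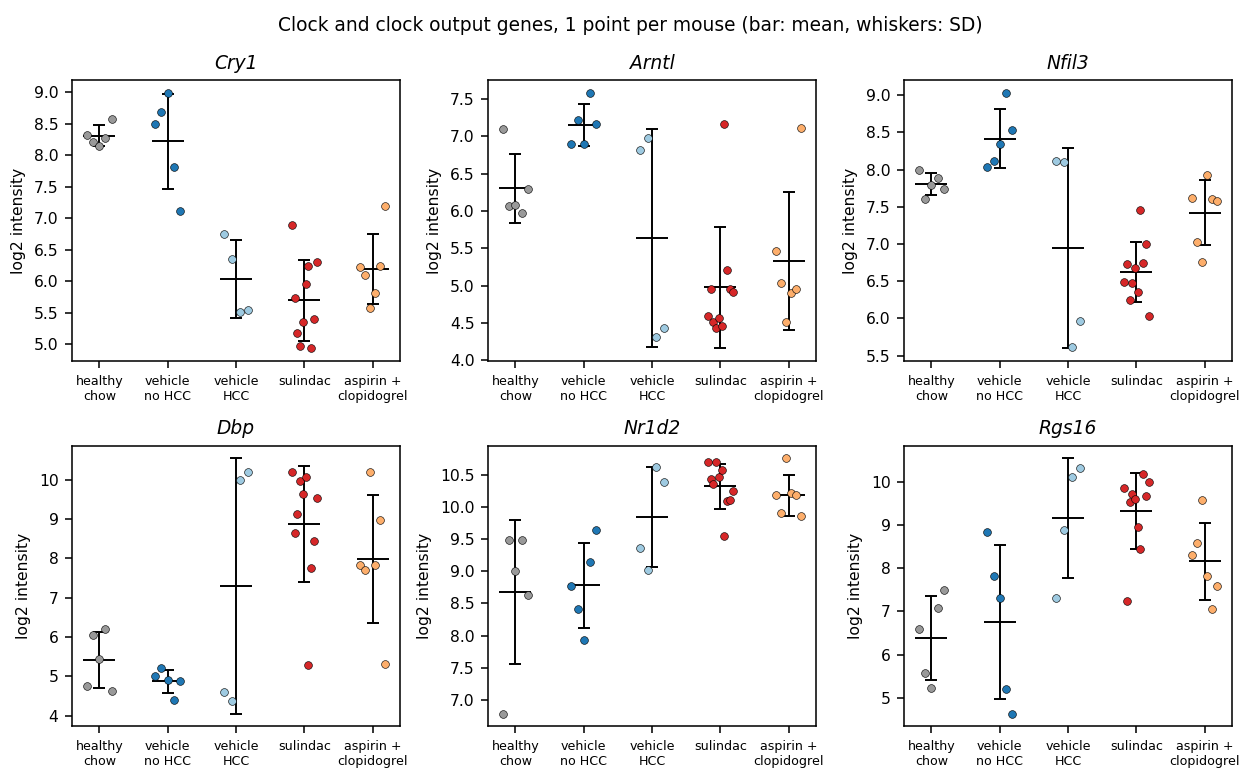
Log2 intensity of 6 clock and clock output genes, 1 point per mouse in the 5 groups, with the mean as a bar and the SD as whiskers. Sulindac mice lie below vehicle mice without HCC for Cry1 and Nfil3 and above them for Dbp (from 5.29), and overlap them for Arntl (up to 7.17), Nr1d2 (from 9.54) and Rgs16 (from 7.25). The vehicle mice with HCC divide into a pair on either side for Arntl and Dbp.

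Chka, which encodes choline kinase alpha, the first enzyme of phosphatidylcholine synthesis from choline, was 9.70, 9.82, 9.58, 9.70 and 8.57 in the vehicle mice in order. Under sulindac it was 6.02 to 8.83 (median 6.93), so that only Veh_low_1819 and Sulin_15 overlapped. The change was -2.22 (SE 0.53, adjusted p = 0.0356), and -2.45 without Veh_low_794 and Veh_low_1819 (adjusted p = 0.07). The call was lost without any 1 of Veh_low_1810, Veh_low_1825, Veh_low_2091 and Veh_low_794 and Sulin_16, Sulin_18, Sulin_20, Sulin_23, Sulin_25 and Sulin_29 (adjusted p up to 0.0997).

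Ppp1r3c, which encodes a subunit that brings protein phosphatase to glycogen, had 10.76 in Veh_low_1810 and 11.39 to 11.53 in the other vehicle mice. It was 8.64 to 10.71 (median 9.87) in sulindac mice, without overlap. The change was -1.52 (SE 0.33, adjusted p = 0.0174), lost without Veh_low_2091 (adjusted p = 0.0673) or Veh_low_1825, and without Veh_low_794 and Veh_low_1819 together (-1.43, adjusted p = 0.0917). Angptl8, which encodes a secreted inhibitor of lipoprotein lipase induced by feeding, was 9.88, 10.87, 10.88, 10.67 and 11.07 in the vehicle mice in order and 7.75 to 10.12 (median 9.12) under sulindac. Veh_low_1810 lay within the sulindac range. Its change of -1.64 (SE 0.39, adjusted p = 0.0315) was lost without Veh_low_1825, Veh_low_2091, Veh_low_794 or Veh_low_1819 or Sulin_18 or Sulin_29 (adjusted p up to 0.0997) and without Veh_low_794 and Veh_low_1819 together (adjusted p = 0.148).

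Plin5, which encodes the perilipin that ties lipid droplets to mitochondria, was 10.19, 10.05, 10.35, 9.14 and 9.37 in the vehicle mice in order and 8.33 to 9.25 (median 8.81) under sulindac. The 3 vehicle mice other than Veh_low_794 and Veh_low_1819 stood higher, and without this pair the change of -0.998 (SE 0.24, adjusted p = 0.0388) was -1.37 (adjusted p = 0.0108). Its call was lost without Veh_low_1810, Veh_low_1825 or Veh_low_2091 or Sulin_16, Sulin_18, Sulin_20, Sulin_23, Sulin_29, Sulin_17 or Sulin_26 (adjusted p up to 0.149). Plin5 was the 1 gene called of 17 lipid droplet and lipid uptake genes, of which 7 were higher (median -0.147). A fit of the 15 arrays alone also called Fitm1 of this list lower (-0.451, adjusted p = 0.0139). Plin2, the main perilipin of hepatocytes, differed by 0.002 (adjusted p = 0.999), a gene chosen after its value was seen. Without the pair 2 of the 17 were higher (median -0.338), and 3 were called lower. These were Plin5, Plin4, another perilipin gene (-1.96, adjusted p = 0.0475), and Hilpda, a hypoxia-induced lipid droplet gene (-0.33, adjusted p = 0.0453).

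Csad makes taurine, with which mice conjugate bile acids. It was 9.29, 9.47, 9.04, 11.06 and 11.20 in the vehicle mice in order, highest in the pair near the healthy mice, and 7.16 to 9.23 (median 8.07) under sulindac. The change of -1.77 (SE 0.41, adjusted p = 0.0291) was -1.03 without the pair (adjusted p = 0.347), and the call was lost without Veh_low_794, Veh_low_1819, Sulin_23 or Sulin_26 alone (adjusted p up to 0.119). Nceh1, which hydrolyses cholesterol esters, went the other way. It was 8.21, 7.34, 6.97, 6.48 and 7.55 in the vehicle mice in order and 7.82 to 8.62 (median 8.14) under sulindac, a change of 0.88 (SE 0.20, adjusted p = 0.0274). That call was lost without Veh_low_1825, Veh_low_2091 or Veh_low_794 or Sulin_20 or Sulin_29 (adjusted p up to 0.13), and without Veh_low_794 and Veh_low_1819 together (adjusted p = 0.165).

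Gadd45a, which encodes a stress-induced protein of growth arrest and DNA repair, was 5.16 in Veh_low_1810 and 5.79 to 5.94 in the other vehicle mice, and 6.05 to 7.99 (median 7.08) under sulindac. The groups did not overlap, with a change of 1.21 (SE 0.25, adjusted p = 0.0121). It was the 1 gene called of 19 p53 and DNA damage genes, 13 of which were lower (median -0.033). A fit of the 15 arrays alone also called Trp53inp1 of this list lower (-0.474, adjusted p = 0.0123). Cdkn1a, which encodes the cell cycle inhibitor p21, was 9.28, 8.24, 8.50, 5.45 and 6.00 in the vehicle mice in order and 4.82 to 7.05 (median 5.62) under sulindac. Its change of -1.83 did not pass (adjusted p = 0.124), and this gene was chosen after its values were seen. Without Veh_low_794 and Veh_low_1819, its 2 lowest vehicle mice, the change was -3.01 and passed (adjusted p = 0.00727). The list then held 1 gene called higher and 1 lower, with a median of -0.158.

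Dusp1, an immediate early gene whose phosphatase switches off MAP kinases, ran from 9.80 to 10.62 in vehicle and from 8.08 to 10.14 in sulindac mice. The change of -1.08 (SE 0.27, adjusted p = 0.0409) was kept in 3 of 15 fits that each left out 1 mouse, and was lost without Veh_low_1810, Veh_low_1825, Veh_low_2091 or Veh_low_794 or Sulin_16, Sulin_18, Sulin_20, Sulin_23, Sulin_25, Sulin_29, Sulin_17 or Sulin_26 (adjusted p up to 0.137). Zbtb16, a transcription factor gene induced by glucocorticoids, was 7.71, 7.10, 7.51, 5.73 and 6.28 in the vehicle mice in order and 5.12 to 6.25 (median 5.57) under sulindac. The change was -1.24 (SE 0.30, adjusted p = 0.0348), and -1.81 without Veh_low_794 and Veh_low_1819 (adjusted p = 0.00382). Leaving out Veh_low_1810, Veh_low_1825 or Veh_low_2091 or Sulin_18, Sulin_20, Sulin_25, Sulin_29 or Sulin_15 ended its call (adjusted p up to 0.138). Cyp26b1, which breaks down retinoic acid, fell by 1.07 (adjusted p = 0.0456), with 7.27 in Veh_low_794 and 5.53 to 6.13 in the other vehicle mice against 4.61 to 5.56 under sulindac. That call was kept in 3 of 15 such fits and was lost without Veh_low_1825, Veh_low_2091, Veh_low_794 or Veh_low_1819 or Sulin_16, Sulin_18, Sulin_20, Sulin_23, Sulin_25, Sulin_29, Sulin_21 or Sulin_26 (adjusted p up to 0.186), and without Veh_low_794 and Veh_low_1819 together (-0.64, adjusted p = 0.355).

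**Figure D3:**
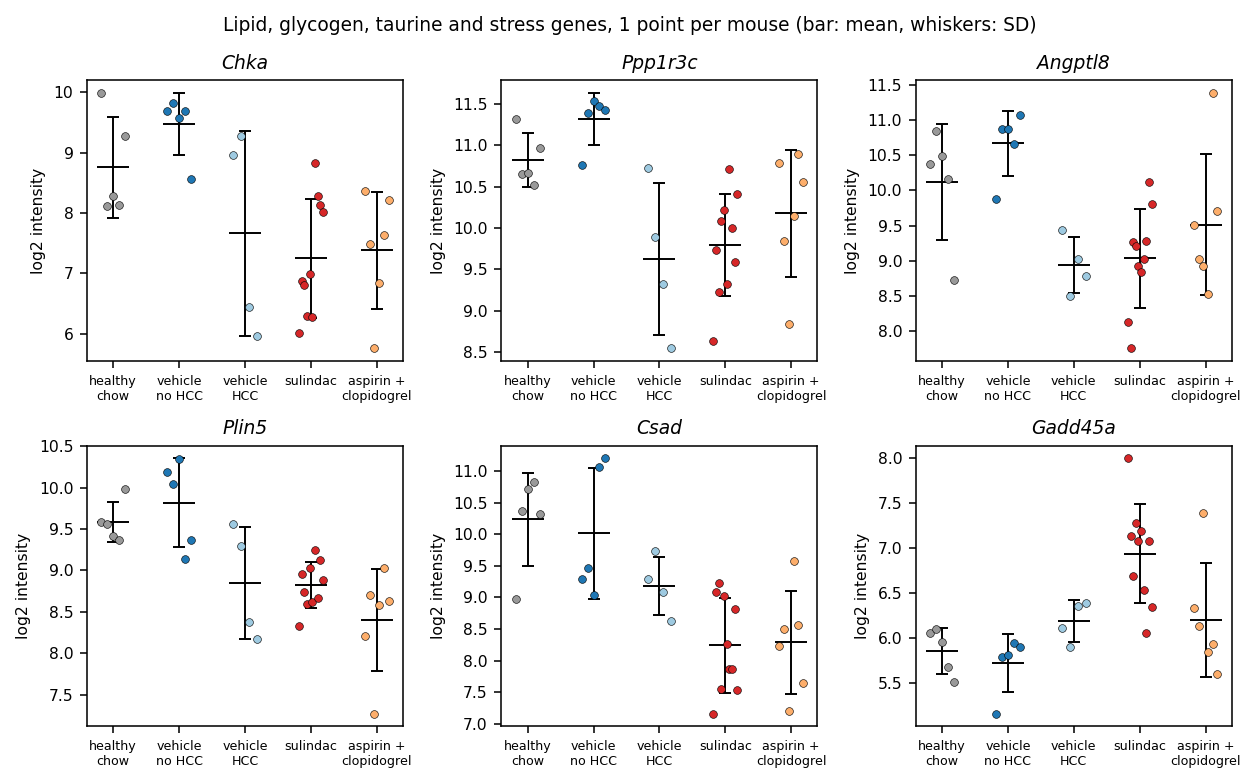
Log2 intensity of 6 genes by group, 1 point per mouse, with the mean as a bar and the SD as whiskers. Sulindac mice do not overlap the 5 vehicle mice without HCC for Ppp1r3c (8.64 to 10.71) and Gadd45a (6.05 to 7.99). Csad is highest in Veh_low_794 and Veh_low_1819, at 11.06 and 11.20.

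Lonrf3, which encodes a RING finger protein and whose promoter is printed above, fell with the same adjusted p as Cry1. It was 7.72, 7.33, 7.19, 6.53 and 6.74 in the vehicle mice in order and 5.30 to 6.34 (median 5.54) under sulindac, without overlap. The change was -1.48 (SE 0.19, adjusted p = 7.15e-05), and no single mouse left out ended its call. Ahctf1, which encodes the nuclear pore protein ELYS, was 7.71 to 8.37 in vehicle and 6.87 to 7.43 in sulindac mice, a change of -0.97 (SE 0.14, adjusted p = 0.000661). Desi2 (-1.02, adjusted p = 0.00548) and Slc45a3, a sugar transporter gene (-0.98, adjusted p = 0.019), also fell. The call of Slc45a3 was lost without Veh_low_1810 or Veh_low_2091 (adjusted p up to 0.0705). In the list of 17 RNA processing genes, Ncbp2, a subunit of the nuclear cap-binding complex, fell by 0.41 (adjusted p = 0.00216) and Paip1, which binds poly(A)-binding protein, fell by 0.46 (adjusted p = 0.04). The call of Paip1 was kept in 3 of 15 fits without 1 mouse, and lost without any of the 5 vehicle mice or Sulin_18, Sulin_20, Sulin_23, Sulin_15, Sulin_17, Sulin_21 or Sulin_26 (adjusted p up to 0.122).

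Further rises were of moderate size. Stxbp6, which encodes a syntaxin-binding protein, was 6.23 to 6.44 in vehicle and 6.74 to 7.86 in sulindac mice, without overlap, a change of 0.84 (SE 0.16, adjusted p = 0.00782). Ank3, which encodes the membrane adaptor ankyrin-G, rose by 0.78 (adjusted p = 0.00357), also without overlap, and 3 of its 4 probe sets had this direction. Gpr146, a receptor gene that regulates blood cholesterol, rose by 0.79 (adjusted p = 0.0356) and lost its call without Veh_low_1810, Veh_low_1825, Veh_low_2091 or Veh_low_1819 or Sulin_18, Sulin_20, Sulin_23, Sulin_25, Sulin_29 or Sulin_26 (adjusted p up to 0.116). Fam114a1 rose by 0.75 (adjusted p = 0.0274) and lost its call without Veh_low_1825, Veh_low_2091, Veh_low_794 or Veh_low_1819 (adjusted p up to 0.11). Pnldc1, which encodes an exonuclease known for trimming piRNAs, was 6.85, 6.48, 6.61, 5.32 and 5.64 in the vehicle mice in order and 6.57 to 8.36 (median 7.59) under sulindac. Its change was 1.37 (adjusted p = 0.0175), and 0.91 without Veh_low_794 and Veh_low_1819 (adjusted p = 0.229), either of which alone also ended the call (adjusted p up to 0.0766). Stap1, which encodes a signalling adaptor of blood cells, rose by 0.89 (adjusted p = 0.0464). It was 4.51 and 4.56 in Veh_low_794 and Veh_low_1819, and the change was 0.42 without them (adjusted p = 0.494). Its call was also lost without Veh_low_2091, Veh_low_794 or Veh_low_1819 or Sulin_16, Sulin_18, Sulin_20, Sulin_23, Sulin_25, Sulin_29, Sulin_15 or Sulin_17 alone (adjusted p up to 0.179).

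A small group of genes separated the sulindac mice from both vehicle groups. Wdfy1, which encodes an endosomal adaptor protein, was 5.26, 5.15, 4.80, 5.28 and 4.90 in the vehicle mice in order and 5.30, 5.27, 5.70 and 5.07 in Veh_high_798, Veh_high_1770, Veh_high_1831 and Veh_high_2088. All 10 sulindac mice lay between 7.50 and 8.04 (median 7.65). The change was 2.61 (SE 0.27, adjusted p = 4.6e-06), with the smallest p of all genes and the same direction in all 4 probe sets. Against vehicle with HCC, which shares the sulindac mice, the change was 2.36 (adjusted p = 0.000182).

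Nnt, which encodes the mitochondrial transhydrogenase that makes NADPH, was 10.01, 9.99, 9.84, 9.14 and 9.34 in the vehicle mice in order and 10.55 to 10.87 (median 10.65) under sulindac. The groups did not overlap, and the change was 1.02 (SE 0.16, adjusted p = 0.000806), or 0.74 without Veh_low_794 and Veh_low_1819 (adjusted p = 0.0261). Nnt was the 1 gene called of 10 mitochondrial redox genes. Slc25a37, which encodes mitoferrin, the mitochondrial iron importer, was 9.47, 9.46, 9.46, 9.14 and 9.09 in the vehicle mice in order and 8.20 to 8.61 (median 8.40) in sulindac mice, a change of -0.93 (SE 0.13, adjusted p = 0.000244). It was the 1 gene called of 17 iron handling genes. Entpd4, which encodes a nucleotide phosphatase of the Golgi, was 6.63 to 7.07 in vehicle and 6.01 to 6.32 in sulindac mice (-0.70, SE 0.12, adjusted p = 0.00216).

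These 4 genes belong to a list of genes that, from general knowledge, differ between C57BL/6 substrains, among them Nnt, which carries a deletion in C57BL/6J mice. They were the 4 called of 10 measured members, beside 0.983% of all genes. The list was chosen with earlier results of these data known. The other 6 did not pass, among them Nlrp12, an inflammasome gene (-0.95, adjusted p = 0.376), and Ide, the gene of insulin-degrading enzyme (-0.26, adjusted p = 0.678). In the RefSeq gene order, Slc25a37 and Entpd4 have 1 coding gene between them. Nnt is the direct neighbour of Paip1, which changed in the opposite direction (-0.46). Such closeness was not particular to this list. Called genes outside it were also direct neighbours, among them Sumo3 and Ube2g2, Mterf2 and Cry1, and Prkci and Skil. Against vehicle with HCC, 8 genes passed (0.0468%). These were Wdfy1, Nnt, Slc25a37, Entpd4, Plekhj1 and Sft2d1, which are among the 168, and Shoc2 and Srrm1, which are not. The last 4 were named after their values were seen. Plekhj1 was 4.37 to 4.76 in vehicle mice without HCC and 5.10 to 5.61 under sulindac (0.73, adjusted p = 0.000409).

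The aspirin and clopidogrel mice did not share 1 level of these genes. Wdfy1 was 7.85, 7.63 and 7.62 in AspClo_61, AspClo_64 and AspClo_58, like the sulindac mice, 6.32 and 6.45 in AspClo_62 and AspClo_63, and 5.04 in AspClo_60, like the vehicle mice. Nnt was 9.70 and 9.92 in AspClo_60 and AspClo_62 and 10.65 to 10.92 in the other 4. Slc25a37 was 8.94 and 8.90 in AspClo_62 and AspClo_63 and 7.98 to 8.53 in the other 4. The labels state neither strain nor breeding, and their part in the difference between sulindac and vehicle was not tested.

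**Figure D4:**
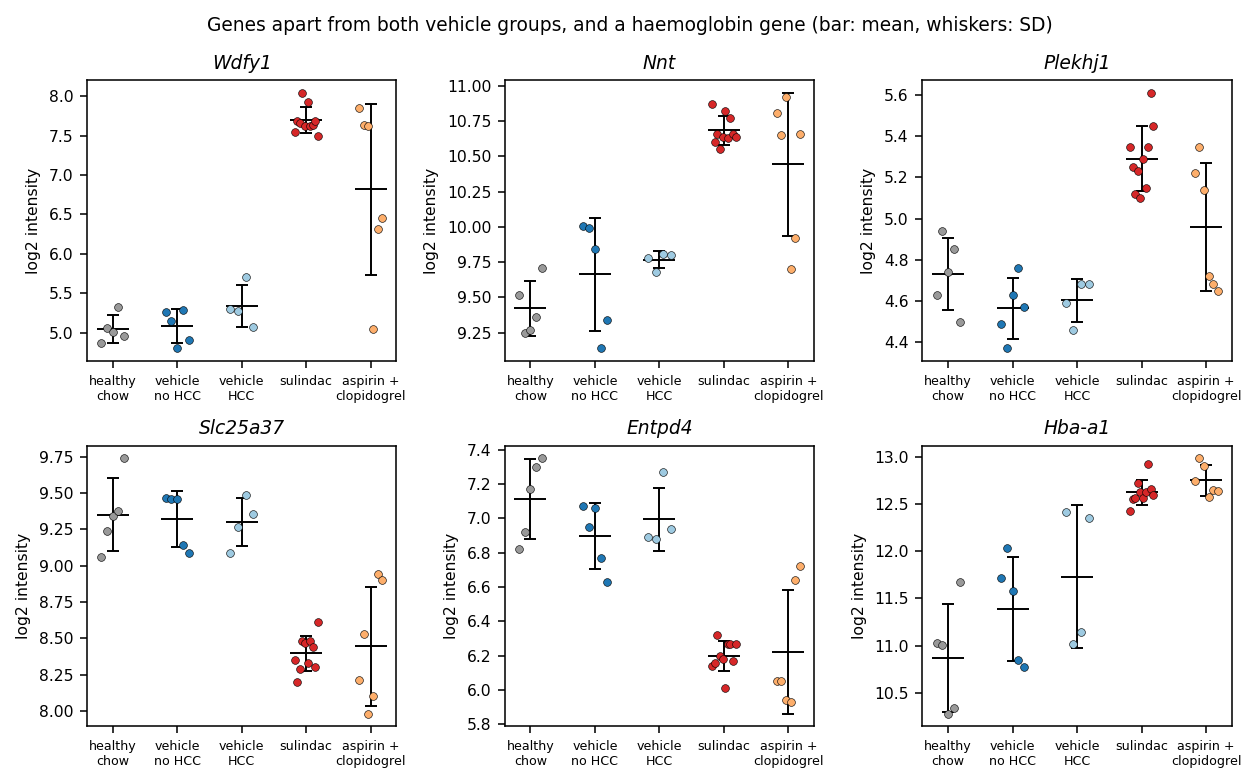
Log2 intensity of 5 genes that differ between sulindac and both vehicle groups, and of Hba-a1, 1 point per mouse in the 5 groups, with the mean as a bar and the SD as whiskers. Sulindac mice lie close together for Wdfy1 (7.50 to 8.04), where aspirin and clopidogrel mice range from 5.04 to 7.85.

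Haemoglobin RNA was higher under sulindac. Hba-a1, an alpha globin gene, was 11.71, 12.03, 11.58, 10.85 and 10.77 in the vehicle mice in order and 12.42 to 12.92 (median 12.60) in sulindac mice, a change of 1.23 (SE 0.22, adjusted p = 0.00458). Hbb-b2, a beta globin gene, rose by 1.20 (SE 0.24, adjusted p = 0.0104), from 10.49 to 11.91 in vehicle to 12.21 to 12.64 in sulindac mice. Both genes have near-identical copies, so the signal cannot be assigned to 1 copy. They were lowest in Veh_low_794 and Veh_low_1819, and without this pair the changes were 0.85 (adjusted p = 0.0934) and 0.74 (adjusted p = 0.179). The other 12 of 14 red blood cell genes did not pass, and Alas2, the haem synthesis gene of red cells, differed by -0.22 (adjusted p = 0.843), chosen after its value was seen. The mean over the list was 5.98 to 6.23 in vehicle and 6.23 to 6.42 in sulindac mice. In bulk liver, more cells of a type and more RNA per cell cannot be told apart.

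The 54 gene lists held 771 measured genes, of which 16 passed (2.08%, beside 0.983% of all genes), in 10 lists. The list in the phase of Arntl held 3 of them and that of Dbp 2, and the substrain list held 2 higher and 2 lower. All lists were chosen with earlier results of these data known, so the difference between these shares is no test. No gene passed in the lists closest to the drug in this fit. Ptgs2, which encodes cyclooxygenase 2, the inducible target of sulindac, was 4.30 to 4.43 in vehicle and 4.26 to 4.44 in sulindac mice, near the lower end of the array's range, and its mean differed by 0.005 (adjusted p = 0.98). Ptgs1, the constitutive cyclooxygenase gene, has no value here. Ppard, a nuclear receptor gene discussed as a further target of sulindac, differed by -0.25 (adjusted p = 0.223), and P2ry12, the platelet receptor blocked by clopidogrel, by 0.052 (adjusted p = 0.914).

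Among 11 prostanoid synthesis genes 6 were higher, with a median change of 0.005. Prxl2b, which encodes a prostaglandin F synthase, was 6.71 to 7.52 in vehicle and 5.94 to 6.66 in sulindac mice, without overlap, but did not pass (-0.71, adjusted p = 0.142). Of 12 prostanoid receptor and breakdown genes 5 were higher (median -0.018), with Slco2a1, the prostaglandin transporter, at -0.73 (adjusted p = 0.28). The 8 lipoxygenase and leukotriene genes had a median of 0.003. Sulindac is activated by reduction of its sulfoxide. Of 10 enzymes of sulfoxide reduction or oxidation, Msrb2, a methionine sulfoxide reductase, was 0.47 higher (adjusted p = 0.0961) and Fmo5, a flavin monooxygenase, was at -0.37 (adjusted p = 0.104). The median of the list was -0.057, and -0.18 without Veh_low_794 and Veh_low_1819, where Fmo5 (-0.63, adjusted p = 0.00209) and Fmo1 (-0.46, adjusted p = 0.0412) were called lower. Of the prostanoid, lipoxygenase and sulfoxide lists, a fit of the 15 arrays alone called 4 genes. Prxl2b (adjusted p = 0.0144) and Aox1 (-0.45, adjusted p = 0.0139) were lower and Msrb2 (adjusted p = 0.0342) and Fmo4 (0.38, adjusted p = 0.0279) higher. Targets of the xenobiotic receptors CAR and PXR had a median of -0.134, with 11 of 16 lower. Cyp2b9 among them was 2.0 higher (adjusted p = 0.277) and at -0.42 without Veh_low_794 and Veh_low_1819 (adjusted p = 0.861). Cyp2b10, another of these targets, was at -0.452 (adjusted p = 0.632). It was called in the fit of the 15 arrays alone (adjusted p = 0.0347).

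The lipid synthesis lists leaned upward without a gene that passed. Of 17 de novo lipogenesis genes 15 were higher (88.24%, beside 51.41% of all genes), with a median change of 0.342. Pklr, the liver pyruvate kinase, was 0.85 higher (adjusted p = 0.148) and Fads2, a fatty acid desaturase, 0.66 higher (adjusted p = 0.148). Without Veh_low_794 and Veh_low_1819, 10 of the 17 were higher and the median was 0.023. Of 19 cholesterol synthesis and uptake genes 17 were higher (median 0.286), with Stard4, a sterol transfer protein, at 0.59 (adjusted p = 0.082). There the median was larger without the same pair, at 0.722, and Stard4 was called (0.90, adjusted p = 0.00872). Fatty acid oxidation genes leaned down, with 17 of 21 lower and a median of -0.08, or 19 of 21 and -0.265 without the pair. Acot1 (-1.5, adjusted p = 0.0346) and Acot2 (-1.55, adjusted p = 0.0369) of this list were called in the fit of the 15 arrays alone. Both were chosen after their values were seen. Pdk4, the kinase that spares glucose in fasting, was at -1.56 (adjusted p = 0.2) and Cpt2, of the carnitine shuttle, at -0.27 (adjusted p = 0.141). None of 13 glucose metabolism genes passed (median 0.031). G6pc among them, the last step of glucose release, was 11.07 to 11.67 in vehicle and 9.67 to 11.41 in sulindac mice (-0.89, adjusted p = 0.06). The fit of the 15 arrays alone called G6pc (adjusted p = 0.0339), and without Sulin_15 1 of the 13 genes was called lower. All 9 heat shock genes were lower, with a median of -0.353 and none called, and Hsph1, a large chaperone, was closest (-0.83, adjusted p = 0.0877). Hsph1 was called in the fit of the 15 arrays alone (adjusted p = 0.0467).

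Immune and matrix genes did not pass the test. Of 22 antigen presentation genes 19 were higher (median 0.083), with Psmb9, a subunit of the immunoproteasome, at 0.99 (adjusted p = 0.0665) and H2-Q4, a class I gene, at 0.65 (adjusted p = 0.0706). A fit of the 15 arrays alone called both Psmb9 (adjusted p = 0.00623) and H2-Q4 (adjusted p = 0.0267) higher. Without Veh_low_794 and Veh_low_1819, 8 of the 22 were higher, with a median of -0.033. Macrophage and monocyte genes had 15 of 17 higher (median 0.216, or -0.024 without that pair), and their mean was 6.81 to 7.69 in vehicle and 7.11 to 7.88 in sulindac mice. Type I interferon genes went from 17 of 25 higher (median 0.112) to 8 of 25 (median -0.095) without the pair. Ifi35 of that list was called higher in the fit of the 15 arrays alone (0.356, adjusted p = 0.0339). Fibrosis and matrix genes had 22 of 27 higher (median 0.119), with Col4a2, a basement membrane collagen, at 0.59 (adjusted p = 0.254). Without the pair 17 of 27 were higher, with a median of 0.059. T and NK cell genes had 9 of 23 higher (median -0.029), and Cd3e, of the T cell receptor complex, was at -0.13 (adjusted p = 0.289). Endothelial genes had 19 of 24 higher (median 0.118), and hepatocyte markers a median of 0.001. Without the pair, Bmp2 of the endothelial list was called higher (0.865, adjusted p = 0.015).

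**Figure D5:**
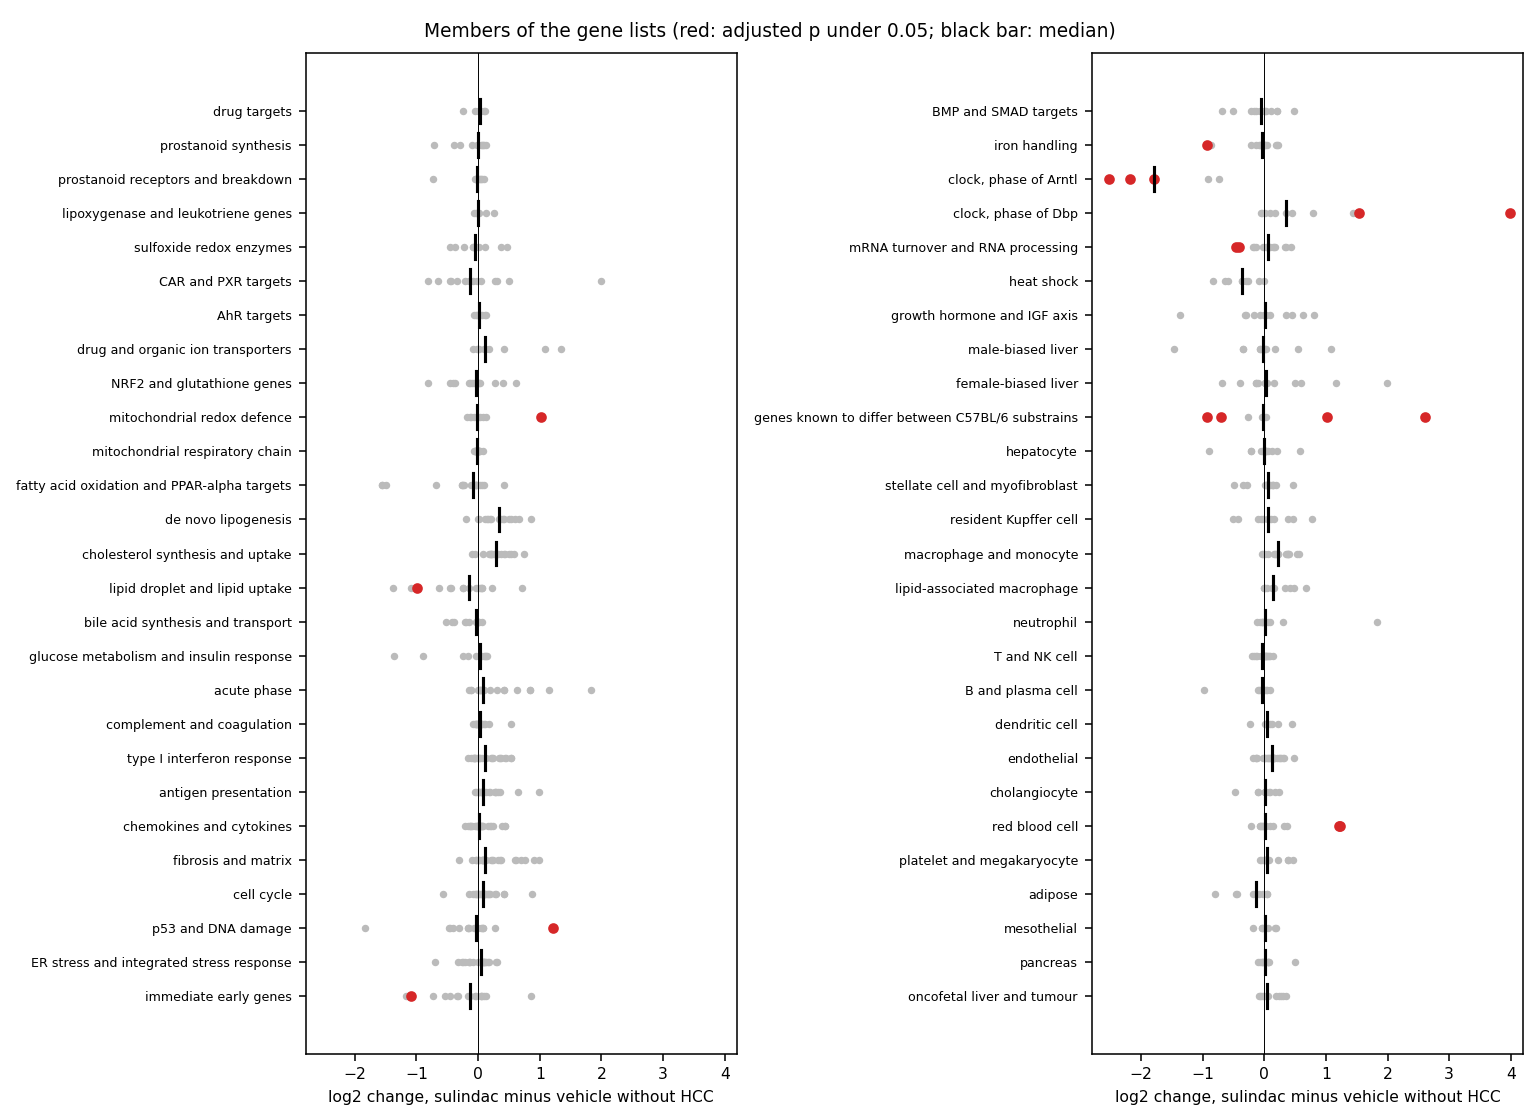
Log2 change (sulindac minus vehicle without HCC) of each measured member of 54 gene lists, 1 list per row, with genes past the threshold in red and the median as a black bar. The list in the phase of Arntl has the lowest median (-1.787), and most other lists have no red point.

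The difference from vehicle without HCC was then set against that of the other drug arm, and the vehicle groups against each other, each by its own contrast in the same fit. Sulindac and aspirin with clopidogrel differed in 150 genes (0.877%), of which 13 were among the 168. This contrast and that of the 168 hold the same sulindac mice. Pnldc1 was 1.5 higher under sulindac (adjusted p = 0.00759), Stap1 0.84 higher (adjusted p = 0.0491) and Ahctf1 was at -0.61 (adjusted p = 0.0256). For Cry1 the difference between the drug arms was -0.50 (adjusted p = 0.584) and for Dbp 0.90 (adjusted p = 0.775), where a difference was not detected. Against the same vehicle mice, aspirin with clopidogrel differed in 224 genes (1.31%), with Cry1 at -2.03 (adjusted p = 0.00304) and Dbp at 3.09 (adjusted p = 0.104). The mean over female-biased liver genes was 8.29 to 8.73 in AspClo_61, AspClo_64, AspClo_58 and AspClo_63 and 6.03 and 6.20 in AspClo_60 and AspClo_62, against 5.41 to 6.72 in sulindac mice. The part of this difference in the comparison of the drug arms was not tested.

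The vehicle groups with and without HCC differed in 15 genes (0.0877%), of which 9 were among the 168. Both contrasts subtract the same vehicle mice without HCC, so the shared genes are no independent support. Cry1 was at -2.18 with HCC (adjusted p = 0.019), Lonrf3 at -1.42 (adjusted p = 0.0136), Ncbp2 at -0.50 (adjusted p = 0.0136) and Ahctf1 at -0.99 (adjusted p = 0.019), and Fam114a1 was 1.09 higher (adjusted p = 0.0334). Sulindac mice differed from vehicle mice with HCC by -0.34 for Cry1 (adjusted p = 0.907) and by -0.051 for Lonrf3 (adjusted p = 0.987). For Arntl the vehicle groups differed by -1.52 (adjusted p = 0.351) and for Dbp by 2.42 (adjusted p = 0.481), with the mice with HCC divided as above. A limma fit of the vehicle groups alone called no gene, with 1536 genes at an unadjusted p under 0.05.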

How the data were processed

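Liver RNA was hybridised to Affymetrix HT MG-430 PM arrays. The authors deposited linear intensity per probe set, computed with RMA, per the submitters' processing notes, and quantile-normalized in ExpressionFileCreator, per the series' design text. The sources used here give no RMA version. Intensity starts at 13.8 to 14.8 in every array, which compresses changes of dim genes, and the number of arrays limits the precision. Groups follow the labels, which give 9 vehicle mice where the design text lists 4.

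Log2 was taken, and each of 17097 genes was represented by the probe set with 1 symbol and the highest mean over 30 arrays. Symbols were updated through RefSeq (GRCm38.p6), where 28689 of 28898 probe sets matched. The same table gave names and gene order. No gene was removed for low signal. The 5 group means were estimated from the 30 arrays together in limma 3.58.1 under R 4.3.3 (25 residual and 2.37 prior degrees of freedom), with Benjamini-Hochberg adjustment over all genes. Two-sided exact permutations of the 15 mice (3003 divisions) were run for the named genes, which were chosen on the same mice, so they add no independent support. On simulated data the fit of sulindac against vehicle without HCC recovered 69.8%, 94.8% and 98.6% of 200 genes changed by 0.5, 1 and 2, with 3.99% to 4.72% false calls. The 200 were drawn from genes at or above the median gene mean. Noise was normal, independent between genes and of equal spread in all mice. These rates therefore do not carry over to dim genes or to groups with mice that stood apart.

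The comparison and the gene lists, which come from general knowledge, were chosen with earlier results of these data known. Named genes are the 15 largest rises and 15 largest falls among called genes whose brighter group mean reaches the median gene mean of 4.90 (log2), without clone or model names. To these come up to 4 called members of each list, or the 2 with the smallest p where none was called, and all measured drug targets and substrain genes. Alternatives covered the arrays in the fit, the reference group, the probe set, the filter, the normalization, the scale, the spread, array weights and left-out mice.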

Additional observations from a re-analysis of the deposited data

Results flagged for a closer look

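Among 68 groups of mice examined for the called genes, 7 held a mouse far from the others of its group, where chance gives about 1 in 20. Sulin_15 was far from the other sulindac mice for Arntl (7.17, the next at 5.21), Dbp (5.29, the next at 7.76) and Nr1d2 (9.54, the next at 10.09), each on the side of the vehicle mice. Veh_low_1810 was low for Gadd45a (5.16, the next at 5.79) and for Ppp1r3c (10.76, the next at 11.39). Chka was low in Veh_low_1819 (8.57, the next at 9.58), and Ncbp2 was high in Veh_low_1825 (7.93, the next at 7.70).

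The difference from vehicle without HCC was itself different between the drug arms for 3 named genes, by limma's test of sulindac minus aspirin with clopidogrel. It was -0.61 for Ahctf1 (adjusted p = 0.0256), 1.5 for Pnldc1 (adjusted p = 0.00759) and 0.84 for Stap1 (adjusted p = 0.0491).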

How the results depend on the processing

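No paired analysis was possible because the groups share no animal numbers. The 168 genes became 387 when only the 15 arrays were fitted (159 shared), 418 when these were quantile-normalized again (155 shared), 331 with array weights (168 shared) and 34 with all 9 vehicle mice as the reference (31 shared). Leaving out 1 mouse gave 63 to 180 genes, and 51 genes were called in every such fit. Other probe set rules, an offset of 16, a trended robust spread, centring and a filter at the median gene mean gave 138 to 225. Of the 34 named genes that were called, 16 kept the call without any 1 mouse, 18 without Veh_low_794 and Veh_low_1819, and 10 with all 9 vehicle mice. None of the 34 changed sign under any alternative run. Leaving out those vehicle mice with Hlth_1798 and Hlth_1807 (249 genes) or with Sulin_15 (175 genes) was chosen after seeing the data, and each kept 22 of the 34 calls.

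The 150 genes between the drug arms became 239 when only their arrays were fitted, and 54 (without AspClo_61) to 270 (without AspClo_62) when 1 mouse was left out. The 15 genes between the vehicle groups became 0 when only their arrays were fitted, and 0 (without Veh_high_2088) to 33 (without Veh_high_798) when 1 mouse was left out.

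Signs turned only for genes that were not called. Ptgs2 was -0.027 over all probe sets, -0.059 by the largest variance, -0.019 after centring, -0.032 without Veh_low_794 and Veh_low_1819 or without the 4 mice, -0.034 without Sulin_15 and that pair, and -0.015 to 0.018 in the fits without 1 mouse. Without the pair and without the 4 mice, P2ry12 was -0.055 (-0.049 without Sulin_15 too, -0.022 to 0.1 in the fits without 1 mouse) and Cyp2b9 -0.416 (-0.379 without Sulin_15 too). Without Sulin_15 and the pair, Slco2a1 was 0.065 and Lcn2 -0.075. Id3 was 0.065 against all 9 vehicle mice. Dim genes near the lower end of the intensity range, such as Ptgs2, cannot show small changes.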
